A study of Mus musculus with 54 samples.

Results

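This comparison sets mouse primordial germ cell-like cells (PGCLC) at day 2 that overexpressed Ovol2a and Ovol2b together against day 2 PGCLC that overexpressed Ovol2b. It was drawn by library name: 2 libraries of the line labelled Ovol2a/2b-Tg and 2 of the line labelled Ovol2b-Tg, 4 of the 54 RNA-seq libraries in the series. All cells carry the strain label C57BL/6 X 129/SvJ. The genotype tags of the compared groups are Ovol2a/2b OE and Ovol2b OE, and whether the transgenic lines were made in wild type (WT) cells or in the mutant labelled TKO is not stated in the labels or processing notes. Neither is whether a line is 1 clone, what drives the transgenes, whether PGCLC were sorted, or whether the 2 libraries of a group came from separate cultures. The p-values below therefore measure only the spread between libraries of the same group, which may be technical. That spread was pooled over all 18 libraries of a stage, so lines outside the comparison add to it.

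The series follows 9 lines through embryonic stem cells (ESC), epiblast-like cells (EpiLC) and PGCLC, with 2 libraries per line and stage. The other lines are WT, mutants of Ovol1, Ovol2 and Ovol3, the TKO mutant, and lines overexpressing Ovol2a or Cdh1. Levels are given as TPM, a gene's share of the library's transcripts scaled for gene length and depth. The compared libraries held 8576846 and 8771825 reads assigned to genes in Ovol2a/2b-Tg and 21900456 and 2462273 in Ovol2b-Tg, so the second Ovol2b-Tg library was the shallowest of the 4, and the 54 libraries ranged from 2158379 to 26728538. PGCLC libraries of the Ovol2a-Tg and Cdh1-Tg lines carry cell type tags of another stage, and their values are given only beside the comparison.

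Ovol2 encodes a C2H2 zinc-finger transcription factor of the Ovo family that is known to hold epithelial cells in the epithelial state and to repress genes of epithelial to mesenchymal transition, and Ovol2A and Ovol2B are protein isoforms of this gene that differ at the N terminus. In the mouse embryo and in culture, germ cells are specified from epiblast cells by BMP4 and WNT signals, through Prdm1, Prdm14 and Tfap2c. The same signals turn on primitive streak and mesoderm genes, the cells of the streak lose E-cadherin and leave the epithelium, and early germ cells share some of that mesodermal expression before they repress it.

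The targeted gene was checked first. Ovol2 (GRCm38.p6 chr2:144305175-144332080) stood at 3403 and 3189.7 TPM in the Ovol2a/2b-Tg PGCLC libraries and at 345 and 296 TPM in the Ovol2b-Tg libraries. Both double transgenic libraries were far above both Ovol2b-Tg libraries, with group means of 3296 ± 151 and 320.5 ± 34.8 TPM (SD, n = 2 each), a 10.3-fold ratio. The log2 fold change, Ovol2a/2b-Tg minus Ovol2b-Tg on the log2(TPM + 1) scale used throughout, was 3.36 ± 0.27 (SE; limma adjusted p = 1.45e-06). Mean Ovol2 was 9.12 TPM in WT PGCLC, 1.18 in TKO, 884 in Ovol2a-Tg and 1.46 in Cdh1-Tg. These gene-level values do not separate the 2 isoforms, nor the transgene from the endogenous gene, so the lines differed in total Ovol2 as well as in which isoforms the labels name, and these differences cannot be told apart. Ovol1 (1.09 and 0.902 against 1.74 and 0.969 TPM) and Ovol3 (8.87 and 4.79 against 7.92 and 8.36 TPM) were not called, at log2 fold changes of -0.22 ± 0.25 and -0.27 ± 0.24 (limma adjusted p = 0.56 and 0.431).

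**Figure D1:**
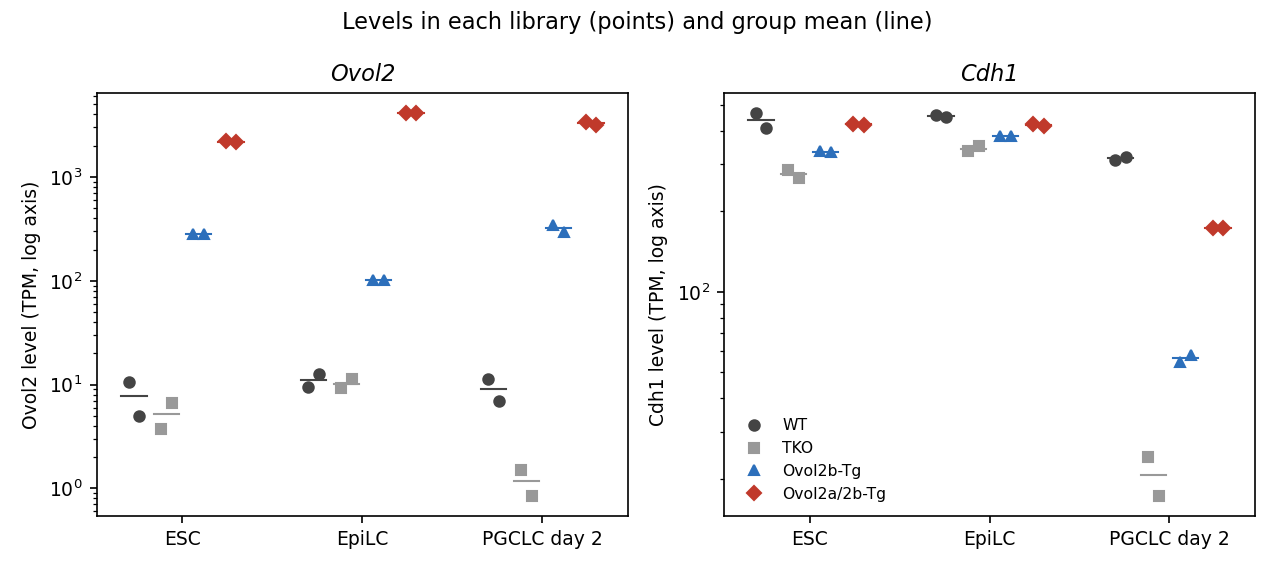
TPM of Ovol2 and Cdh1 in each library of WT, TKO, Ovol2b-Tg and Ovol2a/2b-Tg cells at the ESC, EpiLC and PGCLC stages, on log axes, 1 point per library. Ovol2a/2b-Tg lies above Ovol2b-Tg for Ovol2 at every stage, whereas the Cdh1 points of the same lines lie close together in ESC and EpiLC and apart in PGCLC (174 against 56.4 TPM on average).

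Across 14416 tested genes, 745 (5.17%) were called in PGCLC, which needed a Benjamini-Hochberg adjusted limma p below 0.05 and a log2 fold change of 1 or more either way. Of these, 342 (2.37% of tested genes) were higher and 403 (2.8%) lower in Ovol2a/2b-Tg, and the median log2 fold change of all tested genes was 0.0. At an adjusted p below 0.05 alone, without the fold threshold, 4121 genes passed. The 2 libraries of one line did not overlap the 2 of the other in 745 of the 745 called genes and in 9240 of the 14416 tested, so a lack of overlap by itself says little with 2 libraries a group. Of the 342 genes called higher, Ovol2a/2b-Tg was nearer than Ovol2b-Tg to the WT level in 157 (45.9%), and of the 403 called lower in 227 (56.3%), against 47.6% of all tested genes. Ovol2a/2b-Tg lay above the WT level in 267 of the 342 rises and below it in 269 of the 403 falls. The calls themselves pick genes in which Ovol2a/2b-Tg was high or low, which favours such a position. The matching share over all tested genes was not computed, so no conclusion is drawn from these counts. Because these are bulk libraries, fewer cells of a type and less RNA per cell cannot be told apart in any of the values that follow.

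**Figure D2:**
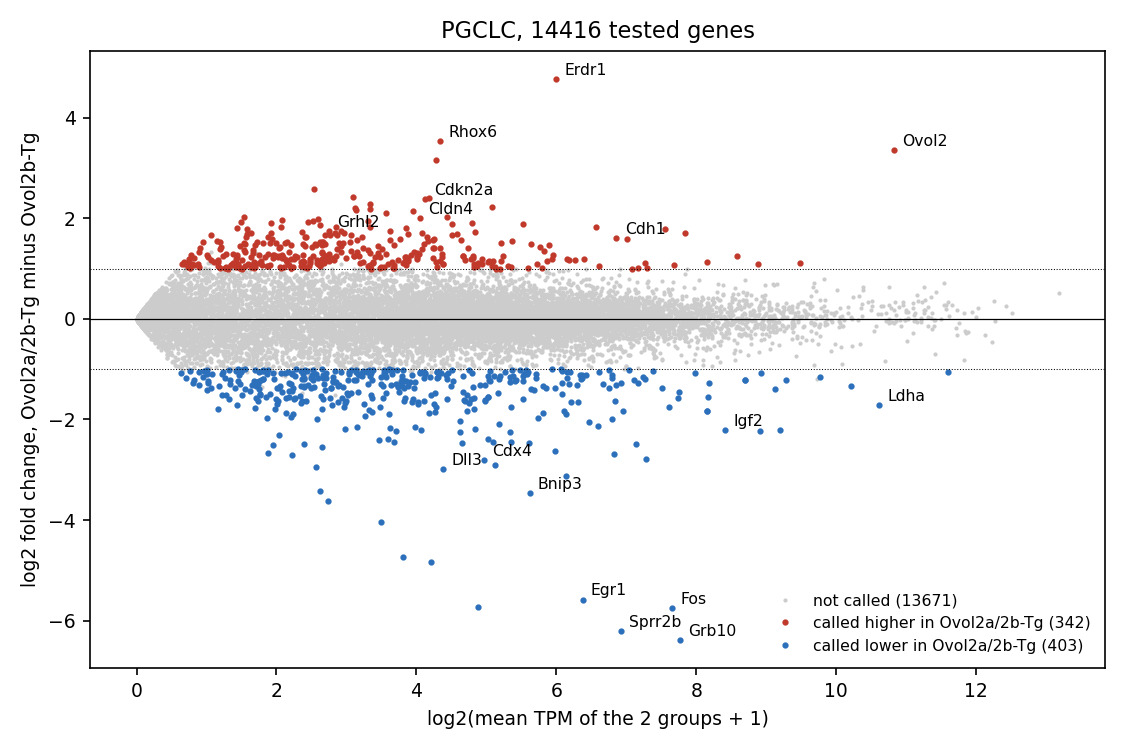
Log2 fold change (Ovol2a/2b-Tg minus Ovol2b-Tg, PGCLC, log2(TPM + 1) scale) of each tested gene against its mean level, with the 342 genes called higher and the 403 called lower in colour. Ovol2 sits among the rises at high level, and Grb10 and Sprr2b are the lowest labelled points, beyond -6.

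Leading rises included several genes outside the epithelial program described next. The 15 largest were Erdr1, Rhox6, Ovol2, Rhox9, Anxa1, Cited4, Lrp2, Cdkn2a, Sptb, Gipc2, Arhgef19, Cdkn2b, Acss1, Nxf7 and 3830417A13Rik. Lrp2, which encodes the endocytic receptor megalin, was at 25.3 and 33.7 TPM in Ovol2a/2b-Tg and 5.26 and 4.24 TPM in Ovol2b-Tg, a log2 fold change of 2.40 ± 0.22 (limma adjusted p = 2.83e-06). Cdkn2a (31.7 and 25.1 against 5.09 and 4.12 TPM) and its neighbour Cdkn2b (15.5 and 15.6 against 3.33 and 2.02 TPM), which encode inhibitors of cyclin-dependent kinases, rose by 2.39 ± 0.22 and 2.19 ± 0.38 (limma adjusted p = 3.13e-06 and 0.000721). For these 3 genes each Ovol2a/2b-Tg library exceeded both Ovol2b-Tg libraries several times over, and their WT means (12.9, 6.29 and 1.77 TPM, in that order) were below Ovol2a/2b-Tg as well. Cited4, a transcriptional co-activator, stood at 13 and 13.7 against 1.89 and 1.49 TPM, and Arhgef19, a RhoA exchange factor, at 14.3 and 12.2 against 2.58 and 1.66 TPM (log2 fold changes 2.42 and 2.20).

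The largest fall was that of Grb10 (chr11:11930499-12037428), an imprinted adaptor of growth factor receptors. It was at 4.54 and 3.8 TPM in Ovol2a/2b-Tg and at 433 and 426 TPM in Ovol2b-Tg, a 103-fold ratio and a log2 fold change of -6.38 ± 0.07 (limma adjusted p = 1.51e-17). Every other PGCLC line shown was on the side of Ovol2b-Tg, with means of 212 TPM in WT, 459 in TKO, 338 in Ovol2a-Tg and 549 in Cdh1-Tg. Sprr2b, a cornified envelope gene of a family of close copies whose reads can be split uncertainly, was at 1.88 and 2.62 against 233 and 245 TPM (-6.21 ± 0.49, limma adjusted p = 4.89e-06), with 63.3 TPM in WT and 2.61 in Cdh1-Tg. The other 13 of the 15 largest falls were Fos, Fosb, Egr1, Hist2h2ac, Hist2h2ab, Rasl2-9, Egr4, Bnip3, Cks1brt, Zfp36, Dll3, Egr2 and Aldoart1.

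Erdr1 (chrX:170010526-170018797) was the largest rise, at 123 and 121 TPM in Ovol2a/2b-Tg and 1.86 and 6.03 in Ovol2b-Tg (4.78 ± 0.42, limma adjusted p = 2.11e-05). Both of these lines were low beside WT (1974 TPM), TKO (2661), Ovol2a-Tg (4394) and Cdh1-Tg (2831). The same order was present at the other stages, with 160.3 and 189.7 against 3.63 and 3.82 TPM in EpiLC and 194 and 187 against 0 and 2.42 TPM in ESC. The neighbouring reproductive homeobox genes Rhox6 (25.9 and 47.2 against 2.03 and 2.17 TPM, 3.54 ± 0.33) and Rhox9 (24.5 and 43.6 against 2.34 and 3.19 TPM, 3.17 ± 0.47) rose together (limma adjusted p = 3.62e-06 and 0.00024), although close copies in this X-linked cluster can share reads. All other PGCLC lines shown were below Ovol2a/2b-Tg, with Ovol2a-Tg next at means of 7.1 and 7.93 TPM.

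Promoter windows are shown for genes of the groups that moved together, the claudin genes Cldn4 and Cldn6 among the rises and the glycolysis and mitophagy genes Ldha and Bnip3 among the falls, so that the levels below can be read beside the sequence. Each is the RefSeq window of 300 bases that ends shortly after a gene start (GRCm38.p6), 5′ to 3′ on the gene's strand, with motif matches in capitals. In Cldn4 (chr5:134946885-134947184, minus strand) and Cldn6 (chr17:23679115-23679414, plus strand) the capitals are CAGGTG or its complement CACCTG, the E-box form bound by Snail and Zeb factors.
Cldn4: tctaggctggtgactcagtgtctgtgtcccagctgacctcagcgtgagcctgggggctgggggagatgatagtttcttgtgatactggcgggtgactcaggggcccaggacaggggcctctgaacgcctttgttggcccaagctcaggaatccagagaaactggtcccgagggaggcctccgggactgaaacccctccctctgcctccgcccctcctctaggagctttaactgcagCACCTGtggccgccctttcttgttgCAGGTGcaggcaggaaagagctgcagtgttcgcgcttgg
Cldn6: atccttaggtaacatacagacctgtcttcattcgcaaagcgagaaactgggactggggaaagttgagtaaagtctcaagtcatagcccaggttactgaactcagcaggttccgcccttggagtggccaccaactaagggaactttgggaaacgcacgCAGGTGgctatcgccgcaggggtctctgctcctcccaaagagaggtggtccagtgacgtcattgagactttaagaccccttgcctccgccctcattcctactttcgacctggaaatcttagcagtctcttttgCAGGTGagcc
Each holds 2 such E-boxes. The motif was found in 10 of the 12 epithelial-list genes called higher that had a window (83.3%), in 23 of the 33 epithelial-list genes tested (69.7%), in 34.5% of the 249 genes called higher with a window, in 24.1% of the 290 called lower and in 22.3% of all 10928 tested genes with one. In Ldha (chr7:46845554-46845853, plus strand) and Bnip3 (chr7:138909457-138909756, minus strand) the capitals are ACGTG or its complement CACGT, the core of the hypoxia response element, and where both overlap the palindrome CACGTG is in capitals.
Ldha: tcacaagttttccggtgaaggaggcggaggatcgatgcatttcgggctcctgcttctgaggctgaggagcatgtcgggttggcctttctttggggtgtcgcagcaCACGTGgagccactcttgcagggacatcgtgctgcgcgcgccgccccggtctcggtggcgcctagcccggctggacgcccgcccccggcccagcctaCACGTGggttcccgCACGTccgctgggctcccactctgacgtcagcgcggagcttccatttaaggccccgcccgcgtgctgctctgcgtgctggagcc
Bnip3: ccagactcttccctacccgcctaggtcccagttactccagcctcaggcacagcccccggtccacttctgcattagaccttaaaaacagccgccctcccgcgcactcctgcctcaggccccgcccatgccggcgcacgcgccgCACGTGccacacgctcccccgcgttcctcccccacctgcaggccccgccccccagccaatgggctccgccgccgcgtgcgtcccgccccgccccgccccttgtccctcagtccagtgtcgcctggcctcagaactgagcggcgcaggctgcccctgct
The Ldha window holds 5 matches and the Bnip3 window 2, counting both strands, so that each palindrome counts as a match on each. Ldha has a second RefSeq gene start, whose window (chr7:46846832-46847131) holds 0 matches, and Pdk1, another gene of the list that was called lower, has 2 windows with 0 matches each. In the shares given here a gene counts once, if any of its windows holds the motif. At least 1 match was present in 8 of the 10 hypoxia-list genes called lower with a window (80.0%), in 17 of the 21 list genes tested (81.0%), in 29.0% of the genes called lower and in 28.4% of all tested genes with a window. CCGTTA, the core reported for Ovo proteins, was in 3.61% of genes called higher, 3.1% of those called lower and 4.37% of all. These are letters in a window and do not show binding.

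Epithelial genes were higher in the double transgenic PGCLC. Of 28 adhesion and junction genes tested, 9 rose, 0 fell and 19 were not called (median log2 fold change 0.66), of 9 claudins 4 rose and 0 fell (median 0.83), and of 8 epithelial regulators 5 rose and 0 fell (median 1.12), where 2.37% of all tested genes rose and their median was 0.0. Cdh1, which encodes E-cadherin, the adhesion molecule of epithelial junctions, stood at 173 and 174 TPM in Ovol2a/2b-Tg and at 54.8 and 58 TPM in Ovol2b-Tg. The Ovol2a/2b-Tg libraries nearly coincided and both lay well above the Ovol2b-Tg pair, a 3.08-fold ratio of means (174 ± 0.381 and 56.4 ± 2.21 TPM) and a log2 fold change of 1.61 ± 0.11 (limma adjusted p = 2.93e-07). On the same scale WT PGCLC were at 316 TPM, TKO at 20.6 and Ovol2a-Tg at 94.3, so both compared lines lay between TKO and WT, Ovol2a/2b-Tg closer to WT.

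Epcam, an epithelial cell adhesion molecule, was at 92.9 and 106 TPM in Ovol2a/2b-Tg and 39.7 and 46.8 in Ovol2b-Tg (1.18 ± 0.15, limma adjusted p = 6.78e-05). Among tight junction genes, Ocln, which encodes occludin, was at 3.46 and 3.11 against 0.42 and 0.587 TPM, a low level in both lines but 6.53-fold apart (1.51 ± 0.27). Cgn, which encodes the tight junction protein cingulin, was at 22.1 and 29.4 against 8.11 and 8 TPM (1.55 ± 0.16). The polarity gene Crb3, the membrane serine protease gene St14 and Sfn, which encodes the epithelial 14-3-3 sigma, rose by 1.51, 1.59 and 1.42 (limma adjusted p = 0.000354, 3.53e-05 and 0.00123). Of the claudins, which form the tight junction seal, Cldn4 was at 25.6 and 25.4 against 4.67 and 6.73 TPM (2.00 ± 0.30, limma adjusted p = 0.000222) and Cldn6 at 19.6 and 22.9 against 3.77 and 7.47 TPM (1.80 ± 0.46, limma adjusted p = 0.0105). Cldn7 (4.53 and 7.2 against 2.98 and 2.58 TPM) was not called. Cldn6 was not called without the second Ovol2a/2b-Tg library (1.70, adjusted p = 0.0702) or the first Ovol2b-Tg library (1.39, adjusted p = 0.0844). For these claudins Ovol2a/2b-Tg stayed below the WT means, which were 89.4 TPM for Cldn4, 182 for Cldn6 and 152 for Cldn7.

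The regulators that rose included the grainyhead factors Grhl2 and Grhl3 and the epithelial splicing regulators Esrp1 and Esrp2. Grhl2, which activates epithelial junction genes, was at 8.84 and 9.89 TPM in Ovol2a/2b-Tg and 2.11 and 2.08 TPM in Ovol2b-Tg, 4.47-fold apart (1.74 ± 0.20, limma adjusted p = 2.76e-05), with 11.5 TPM in WT and 1.06 in TKO. Esrp1 was at 7.36 and 9.02 against 2.52 and 2.13 TPM (1.46 ± 0.24, limma adjusted p = 0.000375), far from its WT mean of 52.1. Grhl2 in Ovol2a/2b-Tg thus stood near its WT level, and Esrp1 well short of it. Esrp2 was not called without the first Ovol2b-Tg library (0.93, adjusted p = 0.0099). Of 6 keratins 1 rose, Krt7 (2.82 and 3.79 against 0.455 and 0.591 TPM, 1.49 ± 0.27), while the abundant simple keratins Krt8 (935 and 917 against 744 and 607 TPM) and Krt18 (661 and 692 against 438 and 407 TPM) were not called. Basement membrane genes partly rose too: of 14 collagen and laminin genes 2 rose and 0 fell (4 and 0 without the first Ovol2a/2b-Tg library), with Col18a1 at 139.8 and 154 against 42.1 and 39 TPM (1.83 ± 0.15, limma adjusted p = 9.05e-07) and Lama1, a laminin chain, at means of 10.1 against 3.1 TPM (1.45 ± 0.18).

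**Figure D3:**
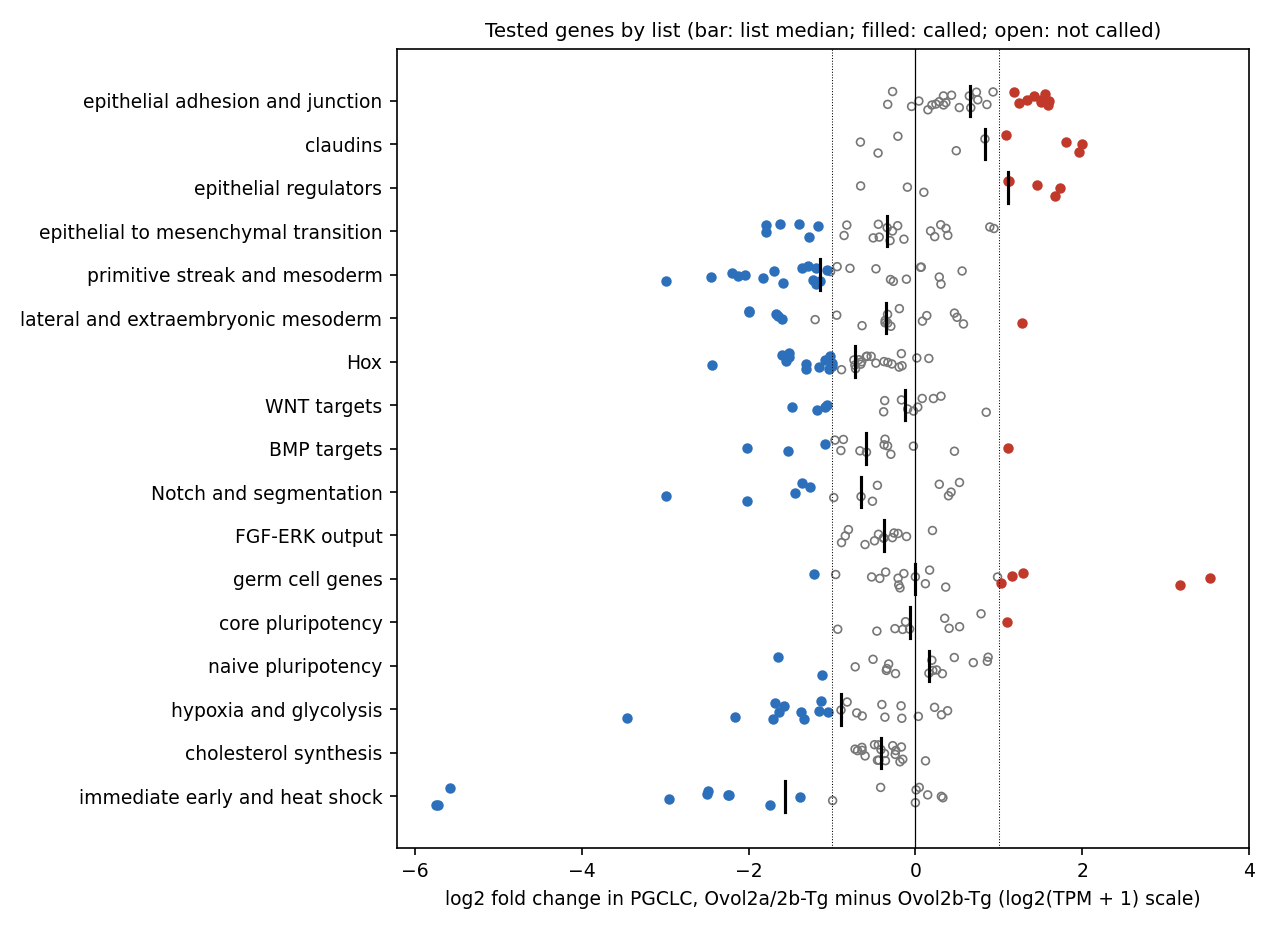
Log2 fold changes (Ovol2a/2b-Tg minus Ovol2b-Tg, PGCLC) of the tested members of 17 gene lists, 1 point per gene, with called genes filled and the list median as a bar. The claudins and epithelial regulators lie mostly to the right of 0 and the primitive streak, Hox, hypoxia and immediate early lists mostly to the left.

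Genes of epithelial to mesenchymal transition fell in part, though not its core Zeb and Twist factors. Of 23 tested, 6 fell, 0 rose and 17 were not called (median -0.34, where 2.8% of all tested genes fell). Snai1, which encodes the repressor of E-cadherin SNAIL, was at 43 and 42.5 TPM in Ovol2a/2b-Tg and 101 and 94.5 in Ovol2b-Tg (-1.17 ± 0.16, limma adjusted p = 8.69e-05). Cdh2, which encodes N-cadherin, was at 88.3 and 77.7 against 194 and 211 TPM (-1.28 ± 0.27, limma adjusted p = 0.00378), near the WT mean of 78 TPM in Ovol2a/2b-Tg and near the TKO mean of 218 in Ovol2b-Tg. Cdh11, Fn1, which encodes fibronectin, and the ligand genes Tgfb1 and Tgfb2 fell, with log2 fold changes of -1.79, -1.40, -1.62 and -1.79 (limma adjusted p = 1.21e-05, 3.89e-06, 0.000223 and 0.000149). Cdh1 and Cdh2 therefore differed between the lines in opposite directions. Zeb1 (6.17 and 5.4 against 7.64 and 6.78 TPM), Snai2 (19.9 and 19 against 25.9 and 30.3), Twist1 (39.2 and 36.3 against 47.1 and 48.9) and Vim, which encodes vimentin (1499.5 and 1404 against 1599 and 1593), were not called, and 1 other gene of the list was called higher without the first Ovol2a/2b-Tg or the second Ovol2b-Tg library. The Ovol2a/2b-Tg levels of these genes stayed above the WT means of 0.697, 3.48, 8.03 and 511 TPM.

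Primitive streak and nascent mesoderm genes were lower in Ovol2a/2b-Tg, with 15 of 27 tested called lower, 0 higher and 12 not called (median -1.15). Mesp1, a bHLH factor of early mesoderm, was at 38.1 and 29.1 TPM in Ovol2a/2b-Tg and 127 and 155 TPM in Ovol2b-Tg (-2.04 ± 0.47, limma adjusted p = 0.00788). Both Ovol2a/2b-Tg libraries were below both Ovol2b-Tg libraries and below the WT mean of 69.2 TPM. The Notch ligand gene Dll3 fell further, from 33.1 and 38.6 TPM in Ovol2b-Tg to 5.23 and 2.42 in Ovol2a/2b-Tg (-2.99 ± 0.24, limma adjusted p = 8.61e-07). Tbx6 and Msgn1, which drive the paraxial mesoderm program, were at 2.46 and 1.22 against 9.26 and 14.8 TPM (-2.20 ± 0.30) and 47.8 and 24.4 against 132 and 177 TPM (-2.13 ± 0.64), and the first Ovol2a/2b-Tg library was the higher of its pair in both genes. Fgf3 and Rspo3, which encode secreted FGF and WNT-potentiating proteins, fell (-2.45 and -1.83, limma adjusted p = 0.000537 and 0.00835). T, which encodes brachyury, the general marker of the streak, was at 512 and 397 against 575 and 682 TPM and was not called (-0.47 ± 0.35, limma adjusted p = 0.349), and neither was Eomes (7.09 and 6.26 against 5.86 and 11.4 TPM). Mesp1 was not called without the second Ovol2a/2b-Tg library (-1.85, adjusted p = 0.0634), Rspo3 without the second Ovol2a/2b-Tg library (-1.76, adjusted p = 0.0564), and Msgn1 without the second Ovol2a/2b-Tg library (-1.66, adjusted p = 0.191), the first Ovol2b-Tg library (-2.33, adjusted p = 0.0609) or the second Ovol2b-Tg library (-1.92, adjusted p = 0.13). The count moved with single libraries: it was 6 without the second Ovol2a/2b-Tg library, 8 without the second Ovol2b-Tg library, 12 without the first Ovol2b-Tg library and 14 without the first Ovol2a/2b-Tg library, with 0 rises in each, and 9 with a pseudocount of 5.

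Lateral and extraembryonic mesoderm genes followed in part, with 5 of 20 lower and 1 higher (median -0.35). Bmp4, which encodes the ligand that induces germ cells, was at 51.4 and 36.7 TPM in Ovol2a/2b-Tg and 164 and 189 in Ovol2b-Tg (-1.99 ± 0.30, limma adjusted p = 0.000377), with 28.3 TPM in WT and 205 in TKO. Foxf1, a forkhead factor of lateral mesoderm, was at 33.8 and 35.9 against 116 and 106 TPM (-1.64 ± 0.21, limma adjusted p = 5.21e-05), and Gata6 (-1.60) and Tbx4 (-1.99) fell. For Bmp4, Foxf1 and Gata6 Ovol2b-Tg was close to the TKO mean, and Ovol2a/2b-Tg lay lower. Hand1, the most abundant gene of the list, was at 507 and 519.8 against 1276 and 1098 TPM and was not called (-1.20 ± 0.47, limma adjusted p = 0.0829). Its pooled spread included wide pairs of other lines, such as 388 and 775 TPM in Ovol2a-Tg and 33.4 and 107 TPM in the Ovol1 mutant.

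Hox genes, which set position along the body axis and come on in the posterior streak, were lower in part: 13 of 32 tested fell, 0 rose and 19 were not called (median -0.72). Hoxb6 was at 2.99 and 2.97 TPM in Ovol2a/2b-Tg and 18.1 and 23.4 TPM in Ovol2b-Tg (-2.44 ± 0.44, limma adjusted p = 0.00103). Hoxd9 was at 17.4 and 13.8 against 50.3 and 44.6 TPM (-1.55 ± 0.34, limma adjusted p = 0.00414) and Hoxb8 at 4.08 and 2.47 against 10.6 and 11.3 TPM (-1.51 ± 0.31, limma adjusted p = 0.00212). Both lines exceeded WT for these 3 genes (means 0.278, 3.53 and 2.11 TPM, in that order), with Ovol2a/2b-Tg between WT and Ovol2b-Tg, and TKO was higher still at 35.1, 75.3 and 19.3 TPM. Hoxa9 and Hoxa10, at under 5 TPM in every one of the 4 libraries, fell (-1.60 and -1.51). Cdx4, a caudal factor upstream of Hox genes, was at 7.59 and 6.07 against 47 and 60.5 TPM (-2.80 ± 0.31, limma adjusted p = 2.07e-05). Cdx2 (297 and 246 against 482 and 472 TPM) and Cdx1 (94.9 and 65.3 against 108 and 118 TPM) were not called. Many Hox genes were low in TPM, and their count was 7 without the second Ovol2a/2b-Tg library, 8 with a pseudocount of 0.1 and 3 with a pseudocount of 5.

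Signalling genes gave smaller counts. Of 14 WNT targets 4 fell and 0 rose (median -0.13), with the feedback inhibitor gene Nkd1 (20.3 and 15.8 against 55.9 and 47.5 TPM, -1.47 ± 0.19, limma adjusted p = 5.66e-05), Ccnd1 (-1.18) and Bambi among them, while Axin2, the most general WNT target, was at 105 and 94.7 against 94.9 and 133 TPM and was not called. The WNT count was 2 without the second Ovol2a/2b-Tg library, Ccnd1 being not called (the second Ovol2a/2b-Tg library (-0.97, adjusted p = 1.95e-05)), and 1 gene was called higher without the second Ovol2b-Tg library. Of 15 BMP targets 3 fell and 1 rose (median -0.59). Hey1, a bHLH repressor, was at 10.5 and 7.23 against 40.8 and 36.6 TPM (-2.02 ± 0.44, limma adjusted p = 0.0047) and Atoh8 at 2.01 and 2.33 against 6.92 and 9.55 TPM (-1.53 ± 0.31), while Id4 rose by 1.11. Id1, a direct BMP target, was at 225 and 233 against 463 and 376 TPM and its log2 fold change of -0.86 ± 0.12 (limma adjusted p = 0.000185) was below the fold threshold. Of 13 Notch and segmentation genes 5 fell and 0 rose (median -0.65), among them Dll3, Hey1, Hes1 (112 and 117 against 351 and 280.3 TPM) and Jag1 (8.2 and 7.33 against 16.4 and 24.2 TPM), and this count was 3 without the second Ovol2a/2b-Tg library. Hey1 was not called without the second Ovol2a/2b-Tg library (-1.78, adjusted p = 0.0513), and Jag1 without the second Ovol2b-Tg library (-0.99, adjusted p = 0.000713). None of 13 FGF-ERK output genes was called by limma (median -0.38). An unadjusted limma p below 0.05 was found for 8 of them and for 5633 of all 14416 tested genes. Limma-voom on the whole reads called 1 of the 13. Without the first Ovol2a/2b-Tg library limma called 2 of the 13 lower, and without either Ovol2b-Tg library 1. The list held Dusp4 (-0.84 ± 0.20) and Etv4 (-0.80 ± 0.16, limma adjusted p = 0.00638 and 0.00158).

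Germ cell genes did not move as a group. Of the 3 specifiers, Prdm14 was at 8.63 and 8.67 TPM in Ovol2a/2b-Tg and 18.1 and 22 TPM in Ovol2b-Tg and fell (-1.12 ± 0.15, limma adjusted p = 7.48e-05), whereas Prdm1, which encodes BLIMP1 (17 and 22.2 against 22.1 and 20.2 TPM, -0.11 ± 0.21), and Tfap2c (32 and 46.8 against 29.9 and 28.4 TPM, 0.40 ± 0.20) were not called (limma adjusted p = 0.729 and 0.158). All 3 were detected in each of the 4 libraries, and Prdm14 was not called without the second Ovol2b-Tg library (-0.99, adjusted p = 0.00204). Of 19 further germ cell genes 5 rose, 1 fell and 13 were not called (median 0.0), the rises being Dppa3, Tdrd7, Rhox5, Rhox6 and Rhox9. Tdrd7 was not called without the second Ovol2b-Tg library (0.86, adjusted p = 0.0192), nor Rhox5 without the second Ovol2a/2b-Tg library (1.01, adjusted p = 0.0691). Dppa3, a marker of specified germ cells, was at 9.33 and 7.67 against 3.53 and 2.29 TPM (1.29 ± 0.26, limma adjusted p = 0.00196), with 19.2 TPM in WT, so each Ovol2a/2b-Tg library lay between Ovol2b-Tg and WT. Ifitm1, an early membrane marker shared with mesoderm, was the fall, at 252 and 249 against 589 and 575 TPM (-1.21 ± 0.11, limma adjusted p = 2.9e-06). Nanos3 (4.69 and 6.45 against 6.78 and 10.3 TPM) and Dnd1 (20.2 and 18.2 against 24.8 and 24.9 TPM), RNA-binding proteins of early germ cells, were not called.

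Among 11 core pluripotency genes 1 rose and 0 fell (median -0.07). Sox2 was at 61 and 82.1 TPM in Ovol2a/2b-Tg and 33.2 and 31.7 in Ovol2b-Tg (1.10 ± 0.21, limma adjusted p = 0.00177). It was not called without the second Ovol2a/2b-Tg library (0.89, adjusted p = 0.0312). Pou5f1, which encodes OCT4, was at 1125 and 1164 against 643 and 683 TPM, a difference below the fold threshold (0.79 ± 0.09, limma adjusted p = 2.99e-05). Nanog was at 46.1 and 59.6 against 45.9 and 66 TPM, overlapping and far below the WT mean of 185 in both lines. Of 17 naive genes 2 fell, Prdm14 and Klf4 (6.75 and 6.96 against 25.8 and 21.6 TPM, -1.65 ± 0.24), and 0 rose, against 1 and 2 without the second Ovol2b-Tg library. Of 17 formative epiblast genes 2 rose and 2 fell: the neural and epiblast factors Pou3f1 (33.7 and 35.7 against 16.8 and 13.1 TPM, 1.17 ± 0.26) and Otx2 (2.56 and 3.61 against 0.617 and 0.35 TPM, 1.46 ± 0.26) rose, while Fgf15 (12.4 and 7.09 against 50.8 and 55.5 TPM, -2.38 ± 0.19) and Lef1 (68.2 and 57.1 against 128 and 133 TPM, -1.06 ± 0.16) fell. The limma adjusted p of the rises were 0.00337 and 0.000819 and of the falls 1.03e-06 and 0.000245. Lef1 was not called without the second Ovol2a/2b-Tg library (-0.93, adjusted p = 0.00607). None of 9 DNA methylation enzymes was called by limma or limma-voom. An unadjusted limma p below 0.05 was found for 3 of them and for 5633 of all 14416 tested genes.

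Genes of glycolysis and the hypoxia response fell: 11 of 23 tested were lower, 0 higher and 12 not called (median -0.89). Bnip3, a mitophagy receptor and classical hypoxia target whose promoter is printed above, was at 7.8 and 6.55 TPM in Ovol2a/2b-Tg and 95.5 and 82.7 TPM in Ovol2b-Tg, 12.4-fold apart (-3.46 ± 0.26, limma adjusted p = 5.73e-07). Ldha, which encodes lactate dehydrogenase A, was at 777 and 694 against 2593 and 2227 TPM (-1.71 ± 0.09, limma adjusted p = 3.48e-08), and Aldoc, an aldolase, at 3.3 and 3.55 against 22.7 and 15.7 TPM (-2.17 ± 0.27). Pdk1, P4ha1 and Vegfa fell, with log2 fold changes of -1.69, -1.64 and -1.57. For Bnip3 and Ldha the Ovol2b-Tg levels were near the TKO means (85.2 and 2546 TPM), and Ovol2a/2b-Tg was below the WT means (28.1 and 1735 TPM). The summed level of the list was 9916 and 9594 TPM in Ovol2a/2b-Tg, 18520 and 16180 in Ovol2b-Tg and 10460 and 10180 in Cdh1-Tg. It was 9849 and 10420 TPM in the Ovol3 mutant, 12140 and 11130 in Ovol2a-Tg, 12480 and 14390 in WT and 16650 and 18880 in TKO. A low sum was thus shared with Cdh1-Tg and the Ovol3 mutant, and the sums of Ovol2b-Tg and TKO were the highest. Not every gene was low in Cdh1-Tg. P4ha1 means were 11.6 TPM in Ovol2a/2b-Tg, 38.4 in Ovol2b-Tg and 28.2 in Cdh1-Tg. The glucose transporter genes Slc2a1 (699 and 804 against 708 and 577 TPM) and Slc2a3 (527 and 539.9 against 639 and 558 TPM) and Gapdh (702 and 673 against 646 and 472 TPM), also in the list, were not called. The count stayed between 10 and 11 when any 1 of the 4 libraries was left out.

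Immediate early genes, which are induced within minutes by growth factors and by stress, were much lower in Ovol2a/2b-Tg. Of 18 tested in a list that also held heat shock genes, 10 fell and 0 rose (median -1.56). Fos (chr12:85473890-85477274) was at 5.66 and 6.99 TPM in Ovol2a/2b-Tg and 439.9 and 350.4 TPM in Ovol2b-Tg, 62.5-fold apart (-5.75 ± 0.41, limma adjusted p = 4.65e-06). Egr1 was at 3 and 1.87 against 169.6 and 154 TPM (-5.58 ± 0.27, limma adjusted p = 6.68e-08), and Fosb at 0.139 and 0 against 69.2 and 44.7 TPM (-5.73 ± 0.81, limma adjusted p = 0.000487). Egr4, outside the list, was listed at 0 in both Ovol2a/2b-Tg libraries and at 11.8 and 10.7 TPM in Ovol2b-Tg. Junb fell less, from 269 and 210.3 to 44.8 and 38.2 TPM (-2.49 ± 0.28), as did Egr3 (8.04 and 7.72 to 0.657 and 0.522 TPM, -2.48 ± 0.52) and Egr2 (10.5 and 8.53 to 0.444 and 0.265 TPM, -2.95 ± 0.38). The Cdh1-Tg PGCLC were low in the same genes, with means of 18.4 TPM for Fos, 12 for Egr1 and 0.194 for Fosb, whereas WT stood at 596, 245 and 91.2 TPM and TKO at 348, 206 and 48.5 TPM.

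This pattern, seen in the data first, was traced through the 9 lines. In PGCLC 20 genes were at least 1 log2 unit lower in both Ovol2a/2b-Tg and Cdh1-Tg than in any of the 7 other lines. Of these 20, 10 met the rule in ESC and EpiLC as well. Ovol2b-Tg is 1 of the 7, so the rule contains the fold threshold of the call. That all 20 were among the 403 called lower is therefore no separate result. The 20 genes included Fos, Fosb, Egr1, Egr2, Nr4a1, Dusp1, Zfp36 and Klf4, the histone genes Hist1h2aa, Hist2h2ab and Hist2h2ac, and Aldoart1, Cks1brt, G6pd2 and Rasl2-9, which are close copies of other genes. Rasl2-9, a copy of Ran, was at 0.261 and 0.259 TPM in Ovol2a/2b-Tg, 15.3 and 25.1 in Ovol2b-Tg, 0.0922 in Cdh1-Tg and 25.4 in WT (-4.03 ± 0.25, limma adjusted p = 9.78e-08), while Ran itself was at 1085 and 1061 against 1023 and 1074 TPM (0.03 ± 0.04). Cks1brt, a copy of Cks1b, was at 0.11 and 0 against 9.55 and 10.9 TPM, with Cks1b at 399 and 357 against 474 and 472 TPM. The Cks1b and Ran values, named here after they were seen, differed by less than the fold threshold. Reads of such pairs can be assigned to either copy, so the copies are uncertain. Without the 20 genes, which the rule could take only from the falls, 342 genes were called higher and 383 lower. A gene that was low in any 1 of the 7 other lines misses the rule. Sprr2b did so, with a mean of 0.172 TPM in the Ovol3 mutant and 2.61 in Cdh1-Tg. The 383 can thus still hold genes low in Cdh1-Tg, and the count does not show how many falls the lines share.

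**Figure D4:**
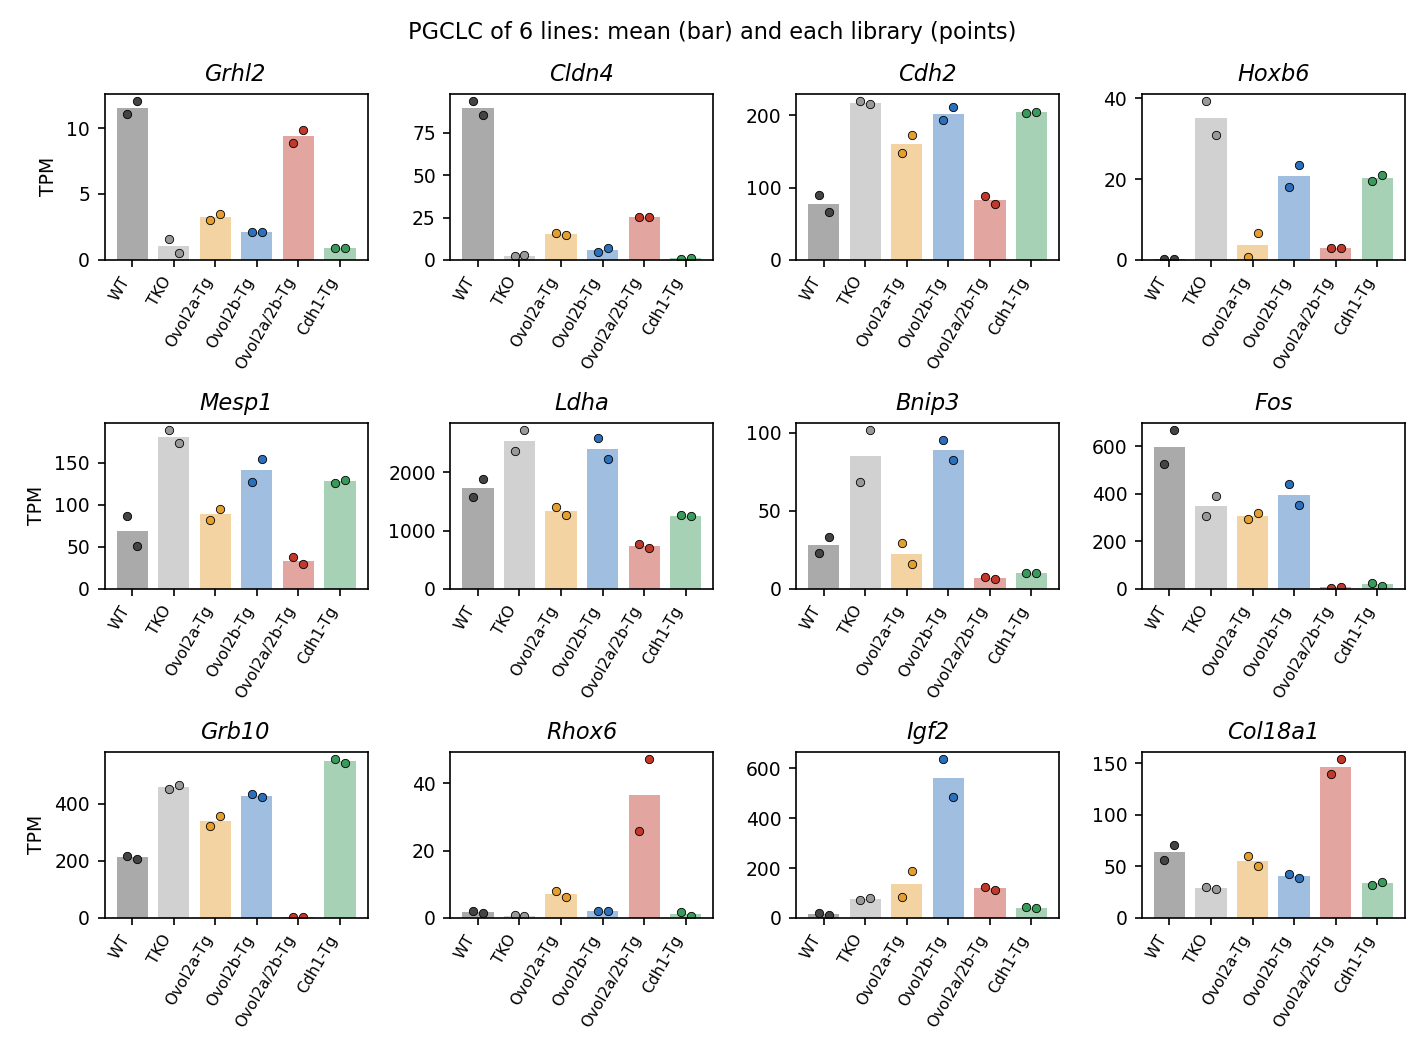
TPM of 12 genes in PGCLC of 6 lines (WT, TKO, Cdh1-Tg and the Ovol2b-Tg, Ovol2a-Tg and Ovol2a/2b-Tg transgenic lines), with 1 point per library and the mean as a bar, on linear axes from 0. For Fos the Ovol2a/2b-Tg and Cdh1-Tg points lie far below the other lines, whereas for Grb10 and Rhox6 Ovol2a/2b-Tg stands apart from all 5 other lines shown.

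Imprinted genes changed in both directions, with 2 of 18 higher and 3 lower (median -0.40). Besides Grb10, the growth factor gene Igf2 was at 125 and 113 TPM in Ovol2a/2b-Tg and 636 and 484 TPM in Ovol2b-Tg (-2.21 ± 0.29, limma adjusted p = 0.000122), and the Notch-related Dlk1 at 33.8 and 24.5 against 109.7 and 109 TPM (-1.89 ± 0.37, limma adjusted p = 0.00227). For Igf2 Ovol2b-Tg was also the highest of the lines shown, above TKO (77.5 TPM), Ovol2a-Tg (138) and WT (14.9). The zinc-finger genes Plagl1 (35.7 and 35.6 against 9.92 and 10.7 TPM, 1.70 ± 0.13) and Zim1 (6.09 and 11.4 against 2.98 and 3.21 TPM, 1.20 ± 0.28) rose, Zim1 not without the second Ovol2a/2b-Tg library (0.79, adjusted p = 0.0977). Of 19 p53 targets 3 rose and 1 fell (median 0.28), with Ccng1 (281 and 275 against 125 and 137 TPM, 1.08 ± 0.07) and Plk2 (82.5 and 78 against 29.9 and 31.8 TPM, 1.35 ± 0.13) among the rises and the fall not called without the second Ovol2a/2b-Tg or the first Ovol2b-Tg library, while Cdkn1a (81.7 and 69.3 against 63.8 and 72.6 TPM) and Mdm2 (63 and 66.7 against 56.1 and 59.6 TPM) were not called. Cdh1-Tg means were 266 TPM for Ccng1 and 64.9 for Plk2, and WT means 202 and 58.6 TPM. None of 19 cholesterol synthesis genes was called by limma or limma-voom (median -0.41). An unadjusted limma p below 0.05 was found for 15 of them and for 5633 of all 14416 tested genes.

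Markers of other cell types that a bulk culture could hold did not all move in 1 direction. Of 13 endoderm genes 1 rose and 1 fell, and their summed level was 543 and 607 TPM in Ovol2a/2b-Tg and 315 and 294 TPM in Ovol2b-Tg, most of it Apoe (503 and 569.9 against 232 and 218 TPM). The defining endoderm markers were near 0, with Foxa2 at 0.222 and 0.662 against 0.784 and 0.395 TPM and Sox17 at 1.8 and 1.15 against 2.72 and 2.29 TPM. Of 15 endothelium and blood genes 3 fell and 0 rose (summed 75.9 and 82 against 99.2 and 87 TPM), led by Etv2 (2.26 and 3.49 against 21.4 and 17 TPM, -2.39 ± 0.43) and including Kdr (1.16 and 0.815 against 4.16 and 5.85 TPM), while Gata1 and the embryonic globin Hba-x were listed at 0 in all 4 libraries. Of 11 trophoblast genes 2 rose and 1 fell (summed 1568 and 1526 against 2876 and 2685 TPM, mostly from Hand1, Peg10 and Cdx2), the fall being Plac1 (14.8 and 13.2 against 89.6 and 73.6 TPM, -2.46 ± 0.38), and the defining markers Elf5 and Tpbpa were listed at 0 in all 4. Of 12 fibroblast genes 2 rose and 0 fell (summed 884 and 773 against 712 and 642 TPM), and 8 had a log2 fold change above 0 (median 0.275). Col1a1, Col1a2 and Dcn, defining markers of the list, were not among the rises. Col1a1 was at 93.2 and 79.1 against 194 and 141 TPM, Col1a2 at 14.2 and 13.5 against 13.2 and 14.8 TPM, and Dcn at 0.379 and 0.502 against 0.149 and 0 TPM. Of 12 neural genes 1 fell (summed 93.8 and 77.7 against 67.7 and 75.4 TPM). Of 10 surface ectoderm genes 4 rose and 1 fell (summed 1772 and 1803 against 1289 and 1137 TPM). That list shares Epcam, Grhl3, Krt5 and Trp63 with the lists above. The keratin list alone summed to 1670 and 1667 against 1244 and 1080 TPM, so the surface ectoderm sum was not taken as a separate result. Leaving out 1 library moved the count of each of these cell type lists by at most 1 gene. The part of any such cells in the results was not tested.

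The same 2 lines could be compared before PGCLC induction. In EpiLC 385 genes were called (2.67% of tested genes), 106 higher (0.735%) and 279 lower (1.94%), and in ESC 252 (1.75%), 147 higher (1.02%) and 105 lower (0.728%), although 408 without the second ESC Ovol2b-Tg library. The medians of all tested genes were -0.06 and 0.027, and after quantile scaling the splits were 176 higher and 196 lower in EpiLC and 110 and 139 in ESC. Of the 342 genes higher in PGCLC, 26 were also higher in EpiLC (7.6% of them and 24.5% of the EpiLC rises) and 23 in ESC (6.72% and 15.6%). Of the 403 lower, 68 were also lower in EpiLC (16.9% and 24.4%) and 37 in ESC (9.18% and 35.2%). The stages share no libraries, but they share the lines. Left after removing genes called in the same direction in ESC or EpiLC were 302 rises and 323 falls. The 2 EpiLC Ovol2b-Tg libraries differed from each other by little more than counting noise (chi-square per degree of freedom 1.05 over 13334 genes, p = 1.25e-05) and may be 1 sample, and with the pair averaged and counted once 357 EpiLC genes were called.

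Ovol2 was higher in Ovol2a/2b-Tg at each stage, at 4108 and 4161 against 102 and 101 TPM in EpiLC (5.34 ± 0.12, limma adjusted p = 8.18e-14) and 2217 and 2169 against 280.0 and 285 TPM in ESC (2.95 ± 0.30, limma adjusted p = 3.23e-05). Cdh1 was not called at either: it was at 424 and 419 against 382 and 382 TPM in EpiLC (0.14 ± 0.06) and 426 and 419 against 336 and 332 TPM in ESC (0.34 ± 0.08), with limma adjusted p of 0.0885 and 0.0135, the latter below the fold threshold. An unadjusted limma p below 0.05 was found for 5982 of all 14416 tested genes in EpiLC and for 3899 in ESC. By list, epithelial adhesion genes gave 0 limma calls in EpiLC (17 of 28 at an unadjusted p below 0.05) and 2 rises in ESC, streak genes 2 rises in EpiLC and 1 fall in ESC, and Hox genes 0 calls at both (2 and 3 at an unadjusted p below 0.05). Hypoxia genes gave 5 falls in EpiLC and 0 calls in ESC (10 at an unadjusted p below 0.05), and immediate early genes 8 and 6 falls. Cleavage-stage genes, the Zscan4 and Tcstv families that mark a rare early embryo-like state of ESC, gave 4 rises of 5 in EpiLC and 3 in ESC. In PGCLC they gave 0 rises and 2 falls (1 or 0 without any 1 library other than the first Ovol2b-Tg library). The whole list there summed to only 3.55 and 3.75 TPM in Ovol2a/2b-Tg and 5.2 and 11.1 in Ovol2b-Tg, the last in the shallow library. Its median log2 fold change in PGCLC was 0.345, so these falls are of genes at low levels and not of the list.

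Whether the difference between the lines itself differed between stages was tested in 1 fit of all 54 libraries, as the PGCLC log2 fold change minus the EpiLC one. It was called for 738 genes (5.12%), positive in 444 (3.08%) and negative in 294 (2.04%), or 341 and 367 after quantile scaling, and the median over tested genes was 0.06. Of the 745 genes called in PGCLC, 367 also had a called stage difference and 378 did not. For Cdh1 it was 1.46 ± 0.13 (limma adjusted p = 8.6e-10), for Grhl2 1.61 ± 0.24 (limma adjusted p = 1.08e-05) and for Ovol2 -1.97 ± 0.39 (limma adjusted p = 0.000526). Against EpiLC, PGCLC thus had a larger Cdh1 difference and a smaller Ovol2 difference. In ESC, which this contrast leaves out, both differences were smaller than in PGCLC (Ovol2 2.95 against 3.36). Whether the Cdh1 and Ovol2 differences are related was not tested. By list the stage difference was positive in 9 of 28 epithelial adhesion genes, 4 of 9 claudins and 4 of 8 epithelial regulators, with 0 negative in each. It was negative in 14 of 27 streak genes, 10 of 32 Hox genes, 7 of 20 lateral mesoderm genes, 7 of 23 hypoxia genes and 4 of 23 transition genes, with 0 positive in each.

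**Figure D5:**
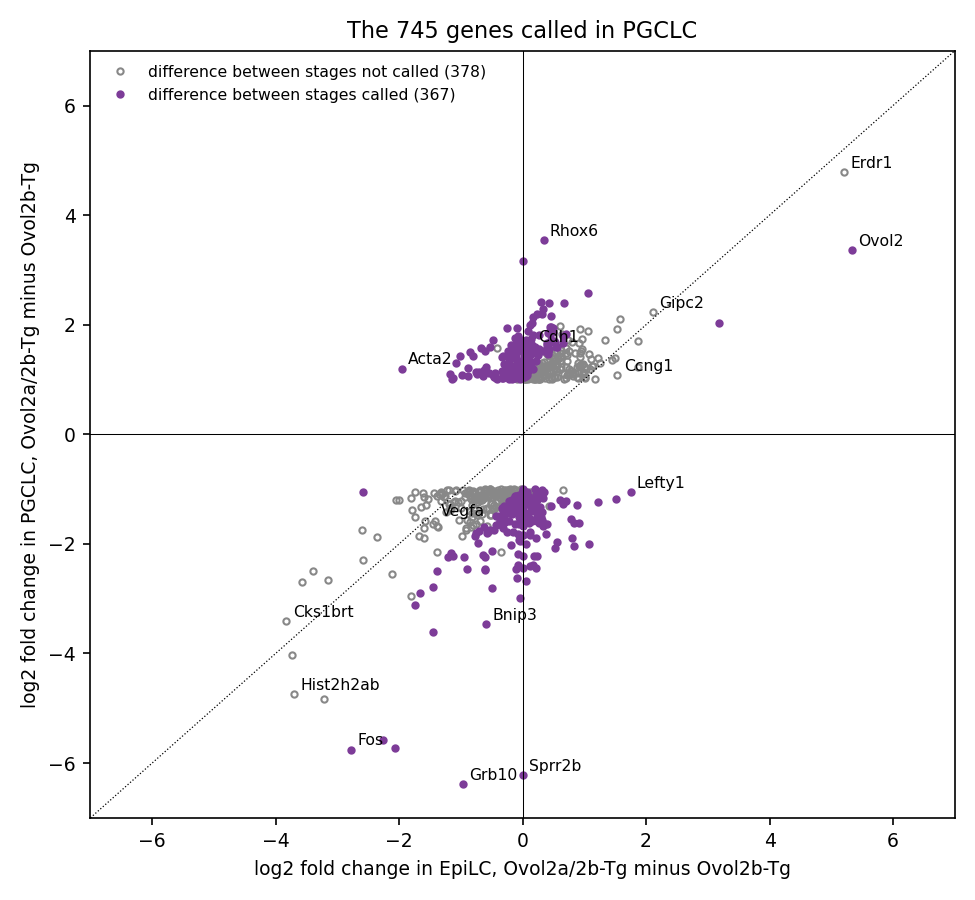
Log2 fold change of Ovol2a/2b-Tg minus Ovol2b-Tg in PGCLC against the same in EpiLC for the 745 genes called in PGCLC, coloured by whether the difference between stages was called (367 genes) or not (378). Grb10 and Sprr2b lie far below the diagonal and Rhox6 and Acta2 above it.

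Single genes showed both larger and opposite differences across stages. Grb10 was at 98 and 93.1 against 185 and 189 TPM in EpiLC (-0.96 ± 0.08) and 17.7 and 18 against 70.3 and 62.7 TPM in ESC (-1.84 ± 0.13), lower in Ovol2a/2b-Tg at each stage and by far the most in PGCLC. Acta2, which encodes smooth muscle actin, was at 128 and 105 against 51.5 and 48.1 TPM in PGCLC (1.20 ± 0.18) but at 3 and 3.3 against 13.8 and 16.5 TPM in EpiLC (-1.96 ± 0.17), a called reversal. Lefty2, which encodes an inhibitor of Nodal signalling, went the other way, at 20.5 and 17.2 against 43.8 and 47.2 TPM in PGCLC (-1.23 ± 0.20) and 109.6 and 122 against 50.4 and 48 TPM in EpiLC (1.21 ± 0.21). Nanog, not called in PGCLC, was lower in Ovol2a/2b-Tg EpiLC, at 8.13 and 5.58 against 34.7 and 34.8 TPM (-2.20 ± 0.15, limma adjusted p = 5.46e-08).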

How the data were processed

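Levels are TPM per gene in 1 table that the authors deposited, with a column for each of 54 libraries. Per the labels' protocols, poly(A) RNA was prepared with a directional kit, and the submitters' processing notes name HISAT2, featureCounts, edgeR and mm10. Tool versions, gene annotation and strand counting: not given in the sources used here.

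Genes with at least 1 TPM in at least 2 libraries (14416) were tested on the log2(TPM + 1) scale with limma (3.58.1, under R 4.3.3), with trend and robust variance. All 18 libraries of a stage shared the spread (9 residual degrees of freedom), and the difference between stages used all 54 libraries (27 degrees of freedom). P-values were Benjamini-Hochberg adjusted over all tested genes, also wherever an adjusted p is printed without naming limma. A ± value after a log2 fold change is a standard error.

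The TPM values of 17973 of the 17973 genes above 0 were whole multiples of what 1 read is worth, within 0.01 reads, which gave the depths and a limma-voom alternative that called 1254 genes in PGCLC. PCR copies were not told apart. On simulated PGCLC data of 13544 genes with 200 changed, 98% of the changed genes were recovered and 3 unchanged genes were called. The changed genes had mean levels of at least 5 TPM and changes beyond the fold threshold, and every line had the same simulated spread. Smaller changes, changed genes at lower levels and unequal spreads were not simulated, so these rates need not hold for the real calls.

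The members and the 37 gene lists (534 genes, 484 tested) were chosen with earlier results of these data known. Named genes are the Ovol genes, Cdh1, the 15 largest rises and falls with a mean of at least 5 TPM in the higher group, list members (the largest changes and defining members), and the 5 largest stage differences each way. Promoters and positions are RefSeq's (GRCm38.p6), and 13743 tested genes matched. One gene of the lists is counted with its list but is not reported here by itself.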

Additional observations from a re-analysis of the deposited data

Results flagged for a closer look

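The difference between the lines differed between PGCLC and EpiLC, by a limma test of the difference itself, in 738 genes, and the 5 largest each way among genes of at least 5 TPM are given here. Rhox6 (3.20), Rhox9 (3.17) and Acta2 (3.15) had the largest positive stage differences on the log2 scale. Ccdc160 was at 7.88 and 6.47 TPM in Ovol2a/2b-Tg and 3.09 and 1.22 TPM in Ovol2b-Tg PGCLC, with a stage difference of 2.45. L3hypdh was at 3.4 and 5.06 against 1.09 and 1.1 TPM in PGCLC, with a stage difference of 2.38. Sprr2b (-6.21), Grb10 (-5.42), Fosb (-3.65) and Egr1 (-3.33) had the largest negative stage differences. Zscan4b, a cleavage-stage gene, was at 31.9 and 30.2 TPM in Ovol2a/2b-Tg and 1.73 and 1.83 TPM in Ovol2b-Tg EpiLC and had a stage difference of -3.21.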

How the results depend on the processing

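Of the 111 called genes named here, 77 stayed called in PGCLC under each of 13 alternatives, 34 were lost under at least 1, and 0 changed sign. With a pseudocount of 5 in place of 1, 271 genes were called in PGCLC (97 higher, 174 lower), 112 in EpiLC, 71 in ESC and 254 for the stage difference, and with 0.1, 746 in EpiLC and 425 in ESC. Not called with a pseudocount of 5 were Atoh8, Bambi, Ccdc160, Crb3, Dppa3, Esrp1, Esrp2, Grhl3, Hoxa10, Hoxa9, Hoxb8, Id4, Jag1, Kdr, Krt7, L3hypdh, Lama1, Ocln, Otx2, Prdm14, Tdrd7 and Zim1, with 0.1 Cdkn2b, Cldn6, Fgf3, Hoxb8, Mesp1 and Zim1, and with limma-voom Fosb and Rhox5. Limma-voom called 1254 genes in PGCLC (639 higher, 615 lower), and the fit of only the 4 ESC libraries 70. Leaving out 1 library gave 612 to 911 genes in PGCLC (275 to 401 higher, 337 to 510 lower), 384 to 419 in EpiLC, 177 to 408 in ESC and 583 to 829 for the stage difference, the lone library being assumed to vary like the other groups. Genes not called in PGCLC whose sign depended on 1 library had these log2 ranges with each library left out: Axin2 -0.41 to 0.073, Col1a2 -0.084 to 0.071, Eomes -0.69 to 0.16, Foxa2 -0.37 to 0.075, Nanog -0.33 to 0.19, Ovol1 -0.46 to 0.017, Ovol3 -0.66 to 0.11, Prdm1 -0.29 to 0.065, Ran -0.0020 to 0.069, Zscan4b -0.010 to 0.64. Of these, Col1a2 was at 0.017 with quantile scaling, and Col1a2, Eomes and Nanog at 0.049, 0.075 and 0.11 with limma-voom, opposite to their signs in limma. Alternatives chosen after seeing the data were averaging the EpiLC Ovol2b-Tg pair, leaving out genes called in ESC or EpiLC, and leaving out the 20 genes low in Cdh1-Tg too. The shallow second Ovol2b-Tg library (2462273 reads) limits genes below about 1 TPM.

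With the replicate number as a block 742 genes were called in PGCLC and 254 in ESC. Same-numbered libraries did not deviate together (correlation 0.027 in PGCLC over 10180 genes and 0.02 in ESC), so the numbers were not taken as pairs. No paired analysis was possible because the EpiLC Ovol2b-Tg columns carry no matching number, for EpiLC and the stage difference.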
